A study of Mus musculus with 12 samples.

Results

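NF-kappaB subunit, inhibitor and feedback genes were compared in 4 mouse lung adenocarcinoma cell lines, 3 labelled highly metastatic and 1 labelled poorly metastatic. The set was defined by 10 gene symbols, Nfkb1, Nfkb2, Rela, Relb, Nfkbia, Nfkbie, Nfkbiz, Tnfaip3, Birc3 and Icam1, and takes every probe set whose annotation names 1 of them and no other gene. Of these, 9 genes had such a probe set, out of 18193 genes with one on the array, and together they hold 19 of the 45037 probe sets tested. Nfkb1 had none and was not analysed here. Nfkbia is read by 5 probe sets, Nfkbiz by 3, Nfkb2, Nfkbie, Tnfaip3 and Birc3 by 2 each, and Rela, Relb and Icam1 by 1 each. Probe sets of 1 gene share a transcript and are not independent.

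RNA of each line was measured on 3 arrays, given in the labels as biological replicates, for 12 arrays in all. KC1, KC2 and KC3 are the highly metastatic lines and KC4 is the poorly metastatic one. All 4 carry the genotype K-rasLA1/+; Cdkn1a-/-, that is, a K-ras allele that is activated somatically, together with loss of the gene for the cell cycle inhibitor p21, so KC4 lacks p21 too. The strain is given as 127s, the animals' ages are not stated, and the lines grew in RPMI medium with serum and no other agent named. The lines came from lung tumours of KC mice, and the labels do not tie a line to an animal or say whether a line is a single clone. Because KC4 alone stands for poor metastasis, metastatic class and line cannot be told apart in any difference given here, and the p-values measure the spread between cultures of a line, not between tumours of a class.

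NF-kappaB is a family of dimeric transcription factors that resting cells hold inactive in the cytoplasm. In the classical branch, the inhibitor IkappaB-alpha (Nfkbia) masks a dimer of RelA (Rela) and p50, the processed product of Nfkb1, until a kinase complex marks the inhibitor for destruction. In the alternative branch, p100 (Nfkb2) holds RelB (Relb) and is itself cut to p52 to give an active dimer. Several genes that NF-kappaB switches on, among them Nfkbia, Tnfaip3 and Birc3, feed back on the pathway, and K-ras-driven lung tumours are a setting in which the pathway has often been studied. All values here are mRNA signals and say nothing of where the proteins were or whether they were cut.

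The DNA letters that the family recognises, called the kappaB site, lie close to the start of several of these genes. Windows of 300 bases, 250 before and 50 after an annotated start, were taken from RefSeq on GRCm38.p6 for 7 of the 10 genes, which gave 10 windows, and Relb, Nfkbiz and Nfkb1 are named only. The kappaB consensus was found in 6 of the 10 windows (60.0%), those of 4 genes, and in 11.2% of all 32851 windows of that length. Both strands were searched, and matches may overlap. A match says only that these letters are there. The genes were chosen for their part in the pathway, and Nfkb2 gave more windows than any other gene, some of them overlapping. The windows are thus not independent, and the shares were not compared by a test. The windows below show the genes of the set that feed back on the pathway, that had a match, or, in Icam1, that varied little, in lower case with consensus matches in capitals, 5′ to 3′ on the gene's own strand.
Nfkb2 first start, chr19:46304487-46304786, plus strand: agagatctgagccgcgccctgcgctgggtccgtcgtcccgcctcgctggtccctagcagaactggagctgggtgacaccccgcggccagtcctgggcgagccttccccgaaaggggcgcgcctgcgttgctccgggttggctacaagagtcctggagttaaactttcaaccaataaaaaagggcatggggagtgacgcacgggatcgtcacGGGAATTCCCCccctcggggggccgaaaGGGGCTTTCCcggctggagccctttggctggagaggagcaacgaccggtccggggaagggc
Nfkb2 second start, chr19:46305445-46305744, plus strand: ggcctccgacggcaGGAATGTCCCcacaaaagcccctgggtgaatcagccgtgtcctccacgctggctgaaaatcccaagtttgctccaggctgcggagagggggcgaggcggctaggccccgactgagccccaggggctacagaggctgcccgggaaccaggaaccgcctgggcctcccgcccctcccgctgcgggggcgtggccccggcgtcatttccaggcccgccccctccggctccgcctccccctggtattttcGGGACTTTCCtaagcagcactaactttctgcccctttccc
Nfkbia, chr12:55492598-55492897, minus strand: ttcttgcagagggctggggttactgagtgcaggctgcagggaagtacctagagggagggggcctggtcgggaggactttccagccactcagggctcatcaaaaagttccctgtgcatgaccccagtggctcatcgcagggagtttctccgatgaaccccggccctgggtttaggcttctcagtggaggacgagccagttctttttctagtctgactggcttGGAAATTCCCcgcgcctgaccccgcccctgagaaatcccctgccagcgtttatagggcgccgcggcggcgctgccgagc
Nfkbie, chr17:45555450-45555749, plus strand: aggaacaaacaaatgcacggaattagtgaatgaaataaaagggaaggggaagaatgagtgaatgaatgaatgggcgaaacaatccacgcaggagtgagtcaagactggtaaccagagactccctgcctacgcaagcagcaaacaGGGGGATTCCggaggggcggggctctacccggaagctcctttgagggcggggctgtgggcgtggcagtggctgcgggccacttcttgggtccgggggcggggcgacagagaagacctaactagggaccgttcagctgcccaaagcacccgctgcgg
Tnfaip3 first start, chr10:19011914-19012213, minus strand: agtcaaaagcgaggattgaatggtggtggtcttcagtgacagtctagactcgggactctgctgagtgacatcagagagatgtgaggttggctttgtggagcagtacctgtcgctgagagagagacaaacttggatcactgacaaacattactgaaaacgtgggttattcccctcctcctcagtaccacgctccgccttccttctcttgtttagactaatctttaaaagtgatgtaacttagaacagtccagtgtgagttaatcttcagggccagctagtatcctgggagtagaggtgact
Tnfaip3 second start, chr10:19015361-19015660, minus strand: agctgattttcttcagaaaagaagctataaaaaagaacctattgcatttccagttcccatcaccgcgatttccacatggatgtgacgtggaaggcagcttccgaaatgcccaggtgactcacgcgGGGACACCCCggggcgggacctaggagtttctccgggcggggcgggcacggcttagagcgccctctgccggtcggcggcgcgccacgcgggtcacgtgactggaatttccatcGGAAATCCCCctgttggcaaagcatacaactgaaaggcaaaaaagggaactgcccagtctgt
Birc3, chr9:7873121-7873420, minus strand: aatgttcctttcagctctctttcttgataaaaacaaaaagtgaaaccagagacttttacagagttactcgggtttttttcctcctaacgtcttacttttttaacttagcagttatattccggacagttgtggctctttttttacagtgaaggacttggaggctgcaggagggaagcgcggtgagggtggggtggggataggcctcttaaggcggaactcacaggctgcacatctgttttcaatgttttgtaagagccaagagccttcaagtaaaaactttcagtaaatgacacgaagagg
Icam1, chr9:21015690-21015989, plus strand: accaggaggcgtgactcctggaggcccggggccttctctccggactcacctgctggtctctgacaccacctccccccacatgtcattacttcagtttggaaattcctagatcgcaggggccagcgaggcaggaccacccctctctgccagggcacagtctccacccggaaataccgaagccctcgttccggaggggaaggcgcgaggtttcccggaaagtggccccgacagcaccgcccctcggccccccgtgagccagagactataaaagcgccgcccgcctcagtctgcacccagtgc
The first Nfkb2 window holds 3 matches, of which 2 overlap and begin 39 and 38 bases before the start and the third begins 11 bases before it. The second holds 1 beginning 236 bases before the start and 1 just after it, and another Nfkb2 window overlaps the second and shares the copy after the start. In Nfkbia the match begins 29 bases before the start, in Nfkbie 106 bases before it, and in the second Tnfaip3 window 125 and 12 bases before it. The first Tnfaip3 window and those of Birc3, Icam1 and Rela hold no match to the consensus, the last of these not being printed. Every match found begins with GG and ends with CC. The search picked matches by their letters, so this is no finding about these windows. Near matches were not counted, such as tggaaattcc in the Icam1 window, so a window without a match may still hold a kappaB site.

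The deposited signals run on a linear scale on which the mean of each array, after leaving out the top and bottom 2% of probe sets, is 500.002 to 500.003, and the array medians lay between 94.5 and 128. Signals were floored at 16, which is 4 on the log2 scale, and 15.3% to 19.9% of probe sets per array were at or under that floor. The array number limits the precision, and no detection calls were used. All 8 of 8 epithelial markers were bright in every line, and their summed signal was 78230 to 97067 in the highly metastatic lines and 65782 to 77516 in KC4. Of the 5 lung lineage markers, 2 averaged over 100 in KC3 and 3 in each other line. Nkx2-1, which defines that lineage, was near the floor, at 5.27 to 36.2 in the highly metastatic lines and 25.7 to 55.6 in KC4, while the surfactant gene Sftpb read 112 to 383 in the highly metastatic lines and 195 to 457 in KC4. Summed signals of 8 leukocyte markers (682 to 1069 in the highly metastatic lines, 711 to 810 in KC4), 5 endothelial markers (355 to 547 and 393 to 500.04) and 7 fibroblast markers (410.3 to 642 and 384 to 665) were small beside the epithelial sum, but not all of these markers were near the floor. Among leukocyte markers, Itgam read 4.62 to 40.4 in the highly metastatic lines and 4.18 to 28.9 in KC4, while Csf1r read 161 to 326 in the highly metastatic lines and 159 to 228 in KC4. Cd68 read 175 to 234 in KC1, 308 to 335 in KC2 and 259.7 to 296 in KC3, against 154 to 198 in KC4, so that KC2 and KC3 lay above KC4. The endothelial gene Kdr read 170.4 to 277 in the highly metastatic lines and 182 to 223 in KC4, and the fibroblast gene Col1a2 read 131 to 212 and 161 to 217. The 18S 5′ control read 605, 451 and 414 in KC1, KC2 and KC3 and 3305 ± 935 (SD, n = 3) in KC4, while the ratio of 3′ to 5′ signal of Actb was 0.04, 0.17 and 0.16 in KC1, KC2 and KC3 and 0.06 in KC4 on the log2 scale. The part of these marker and control values in the differences below was not tested.

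**Figure D1:**
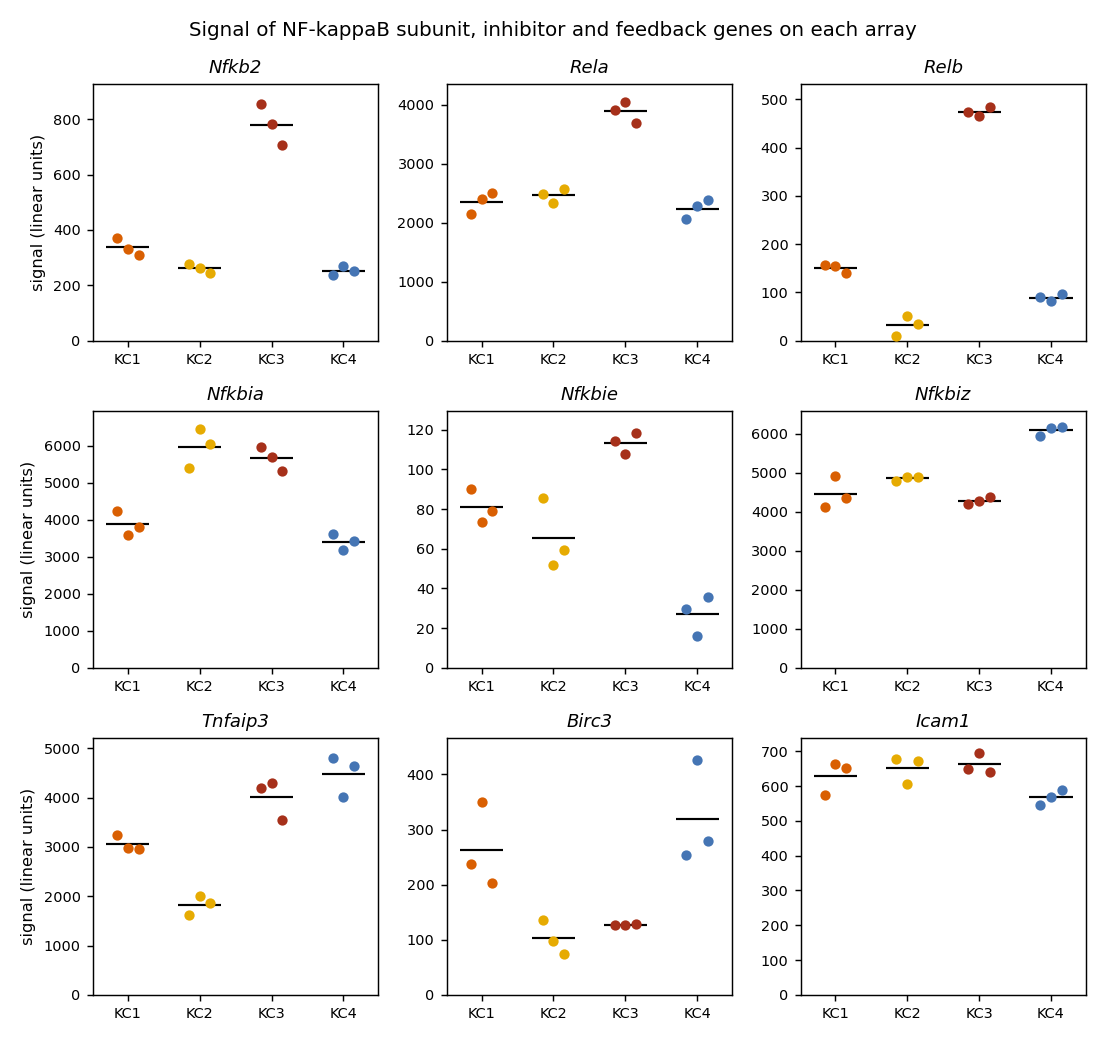
Signal in linear units (y axis, starting at 0 in each panel) on each of the 12 arrays (points, by line on the x axis) with the line mean (bar), for the probe set with the highest mean of each of 9 genes. KC3 stands above the other lines for Nfkb2, Rela and Relb, KC4 stands below them for Nfkbie and above them for Nfkbiz, and KC2 is lowest for Relb and Tnfaip3.

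Of the 3 subunit genes in the set that were measured, Relb, Nfkb2 and Rela, each had its highest line mean in KC3, and KC1 and KC2 did not share this height. A difference was called when limma's moderated test gave a Benjamini-Hochberg adjusted p under 0.05 over all 45037 probe sets and the log2 difference was at least 1, that is, at least 2-fold.

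Relb, which encodes the subunit of the alternative branch, varied most, over 3.98 on the log2 scale between line means. Its signal was 156, 154 and 140 on the KC1 arrays. In KC2 it was 10.3, 50.2 and 33.9. In KC3 it was 474, 465 and 483, against 89.4, 81.1 and 96.5 in KC4. No 2 lines overlapped, and 1 KC2 array lay under the floor. KC3 minus KC4 was 2.42 (SE 0.33, adjusted p = 0.000688), a 5.34-fold higher signal in KC3, whereas KC2 minus KC4 was -1.56 (SE 0.33, adjusted p = 0.00712). KC3 was thus called higher, and KC2 lower, than each of the other 3 lines, with KC2 minus KC3 at -3.98 (adjusted p = 2.29e-05). The size of that gap depends on the floor, since KC2 was near it, and it was -2.89 with a floor of 64, still called. Of all probe sets, 0.631% were called higher in KC3 and 0.826% lower in KC2 against each other line. KC1 and KC4 were neighbours in this order, and KC1 minus KC4, 0.75 with a 95% interval of -0.00 to 1.51, did not pass (adjusted p = 0.178). That interval takes in the spread of KC2 near the floor. The log2 SD of Relb was 0.84 in KC2, against 0.08 in KC1, 0.03 in KC3 and 0.13 in KC4. The KC1 and KC4 arrays themselves lay apart, so the failed test does not show that these lines were alike. The mean of the highly metastatic lines did not pass against KC4 either, at 0.54 (adjusted p = 0.224), its lines lying on both sides of KC4. With KC2 left out the class difference was 1.59 and called (adjusted p = 1.31e-05). With the floor raised to 64, KC2 minus KC4 shrank to -0.47 and was no longer called.

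Nfkb2, which encodes p100, the precursor of p52 and the partner that holds RelB, had signals of 372, 330 and 309 in KC1. KC2 gave 278, 263 and 245. KC3 gave 854, 783 and 705, against 236, 269 and 251 in KC4. All KC3 arrays lay above every other array, and KC2 overlapped KC4. The KC3 signal was 3.09-fold that of KC4, a log2 difference of 1.63 (SE 0.09, adjusted p = 3.47e-06), and KC3 was also called against KC1 (KC1 minus KC3 -1.21, adjusted p = 2.01e-05) and KC2 (KC2 minus KC3 -1.57, adjusted p = 2.74e-06). KC1 was 0.42 higher than KC4 (adjusted p = 0.0132), under the size needed for a call, and KC2 minus KC4 was 0.06 with a 95% interval of -0.16 to 0.27. The class difference of 0.70 passed the adjusted p (0.000167) but not the size. Without KC2 it was 1.02 and called (adjusted p = 0.000301). The second Nfkb2 probe set, which can also bind related transcripts, was dimmer, with log2 means of 7.21 ± 0.70, 7.68 ± 0.26 and 8.18 ± 0.17 in KC1, KC2 and KC3 and 7.51 ± 0.50 in KC4 (SD, n = 3 each). It was highest in KC3 as well, but none of its differences passed.

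Rela, which encodes the main activating subunit of the classical branch, was bright in every line, with 2153, 2406 and 2503 in KC1 and 2496, 2342 and 2575 in KC2. KC3 read 3923, 4056 and 3699, against 2067, 2279 and 2379 in KC4. Only KC3 stood clear of the other arrays, by 1.74-fold over KC4 (log2 0.80, SE 0.07, adjusted p = 5.7e-05), which passed the adjusted p and stayed under the size for a call. KC1, KC2 and KC4 overlapped, and none of their differences passed, with 95% intervals of -0.10 to 0.24 for KC1 minus KC4, -0.02 to 0.31 for KC2 minus KC4 and -0.24 to 0.09 for KC1 minus KC2. Rel, a subunit gene outside the set, had its highest line mean in KC4 and is taken up with the pathway genes.

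Of the 3 IkappaB family genes in the set, the inhibitor genes Nfkbie and Nfkbia were higher in the average of the highly metastatic lines than in KC4. Nfkbiz was lower. Nfkbie encodes IkappaB-epsilon, a cytoplasmic inhibitor that answers NF-kappaB later than IkappaB-alpha does. Its brighter probe set read 90.3, 73.4 and 78.9 in KC1, and 85.7, 51.6 and 59.5 in KC2. It read 114, 108 and 118 in KC3, against 29.5, 16.01 and 35.4 in KC4. Every highly metastatic array lay above every KC4 array, although all these signals were dim. The KC3 signals lay somewhat above the medians of their arrays (96.2, 94.5 and 112), and those of the other lines lay under theirs. The class difference was 1.71 (SE 0.23, adjusted p = 0.00066), a 3.27-fold higher signal. KC4 was called lower than each of the other 3 lines, by 1.65 against KC1 (adjusted p = 0.00353), 1.32 against KC2 (adjusted p = 0.00743) and 2.15 against KC3 (adjusted p = 0.000556), a position that 0.713% of all probe sets held. Among the highly metastatic lines no difference passed, KC2 minus KC3 being -0.82 (adjusted p = 0.0613).

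The second Nfkbie probe set gave 41.5, 74.8 and 91.4 in KC1, and 70.9, 88.2 and 60.2 in KC2. It gave 102, 75.0 and 91.6 in KC3, against 37.7, 14.4 and 50.5 in KC4, with KC1 and KC4 overlapping. Its class difference of 1.26 (adjusted p = 0.0309) and KC3 minus KC4 of 1.51 (adjusted p = 0.0334) were called. Neither call was firm to leaving out 1 array. KC4 replicate 2, the dimmest KC4 array on both probe sets, took the class difference of the second Nfkbie probe set to 0.78 (adjusted p = 0.114) and KC3 minus KC4 to 1.02 (adjusted p = 0.0739) when left out. The class call was also lost without KC1 replicate 2 or 3, KC2 replicate 2, KC3 replicate 1 or 3, or KC4 replicate 1, with adjusted p of 0.0503 to 0.0591, and the KC3 call without any 1 of the KC3 arrays or KC4 replicate 1. Leaving out the line KC2 (1.29, adjusted p = 0.0778) or KC3 (1.14, adjusted p = 0.105) ended the class call of the second Nfkbie probe set, as did adding 16 to every signal, a pseudocount, instead of flooring (0.94). On the brighter probe set the class difference stayed between 1.37 and 1.94 whichever array was left out. Its KC2 minus KC4 call was lost without KC4 replicate 2, at 0.99. A floor of 64, which lies above all KC4 values, left the Nfkbie class difference at 0.43 and ended every Nfkbie call.

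Nfkbia, the gene of IkappaB-alpha and the best known feedback target of the pathway, was among the brightest genes of the set. Its brightest probe set read 4229, 3601 and 3805 in KC1 and 5411, 6454 and 6047 in KC2. In KC3 it read 5981, 5692 and 5321, against 3608, 3195 and 3432 in KC4. KC2 and KC3 lay above KC1 and KC4 without overlap, by 0.81 (adjusted p = 0.00011) and 0.73 (adjusted p = 0.000245) over KC4, while KC1 overlapped KC4. KC2 and KC3 did not differ beyond their spread, at 0.07 (adjusted p = 0.619). The class difference was 0.57 (SE 0.07, adjusted p = 0.000318), or 1.49-fold. Of the other 4 Nfkbia probe sets, 3 ran in the same direction, with class differences of 0.47, 0.57 and 0.54, and ranked KC3 first. The fourth brightest read 550.3, 512 and 415 in KC1, and 552, 624 and 590.5 in KC2. It read 1013, 990.0 and 907 in KC3, against 443, 448 and 458 in KC4. It held the only Nfkbia call, KC3 minus KC4 at 1.11 (adjusted p = 4.7e-05). The dimmest was flat, with a class difference of 0.07 (adjusted p = 0.722). KC3 had the highest line mean on every Nfkbia probe set except the brightest, where KC2 had it. KC2 minus KC3 was -0.72 (adjusted p = 0.000458) on the fourth brightest and -0.38 (adjusted p = 0.0241) on the third brightest. It did not pass on the others.

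Nfkbiz encodes IkappaB-zeta, a nuclear family member that is itself induced and helps to switch on a subset of target genes. It read 4134, 4920 and 4343 in KC1 and 4802, 4906 and 4890 in KC2. In KC3 it read 4203, 4278 and 4383, against 5953, 6150 and 6176 in KC4. All 9 highly metastatic arrays lay below the 3 KC4 arrays. The difference was small, -0.43 for the class (SE 0.05, adjusted p = 0.000152), a 1.35-fold lower signal. KC1 minus KC4 was -0.45 (adjusted p = 0.000537), KC2 minus KC4 was -0.32 (adjusted p = 0.00215) and KC3 minus KC4 was -0.51 (adjusted p = 0.000183). The second Nfkbiz probe set was lower in KC1 (-0.36, adjusted p = 0.0281) and KC3 (-0.70, adjusted p = 0.000571) but not in KC2 (0.05, adjusted p = 0.796). The third gave -0.21 for the class and passed in no comparison.

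The negative regulator Tnfaip3 and the survival gene Birc3 were both lower in KC2 than in KC4. Tnfaip3 encodes A20, a ubiquitin-editing enzyme that shuts signalling to NF-kappaB down. Its brighter probe set read 3250, 2976 and 2958 in KC1 and 1618, 2010 and 1858 in KC2. In KC3 it read 4205, 4303 and 3549, against 4802, 4010 and 4640 in KC4. KC2 lay below all other arrays and KC3 overlapped KC4. KC2 minus KC4 was -1.30 (SE 0.11, adjusted p = 2.44e-05), a 2.45-fold lower signal, and KC2 minus KC3 was -1.14 (adjusted p = 4.67e-05). Against KC1, KC2 was lower by less than the size for a call (KC1 minus KC2 0.75, adjusted p = 0.00127). KC1 was 0.55 below KC4 (KC1 minus KC4 -0.55, adjusted p = 0.00682), and KC3 minus KC4, at -0.16 with a 95% interval of -0.40 to 0.08, did not pass. The second Tnfaip3 probe set gave 313, 282 and 362 in KC1, and 207, 208 and 180.1 in KC2. It gave 308, 393 and 354 in KC3, against 540, 334 and 417 in KC4. It too was called in KC2 minus KC4 (-1.09, adjusted p = 0.00137), a call lost without KC4 replicate 1, at -0.92. Unlike the first, it was not called in KC2 minus KC3 (-0.82, adjusted p = 0.00628).

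Birc3 encodes cIAP2, a ubiquitin ligase that blocks cell death and takes part in signalling from TNF receptors. Its signal was 237, 351 and 203 in KC1 and 136, 98.2 and 73.8 in KC2. It was 127, 126 and 129 in KC3, against 253, 426 and 280 in KC4. KC2 and KC3 lay below KC1 and KC4, and within each of these pairs the difference did not pass. KC2 minus KC4 was -1.64 (SE 0.28, adjusted p = 0.00211), a 3.13-fold lower signal, and KC3 minus KC4 was -1.29 (adjusted p = 0.00932). KC1 minus KC4 was -0.28 with a 95% interval of -0.92 to 0.36. The class difference of -1.07 (adjusted p = 0.00881) was called although KC1 overlapped KC4. That call was lost without KC4 replicate 2, the brightest Birc3 array, at -0.84 (adjusted p = 0.0467), and without KC2 replicate 3, where it fell just short of the size (adjusted p = 0.0121). It was also lost without the line KC2 (-0.78, adjusted p = 0.0505) or KC3 (-0.96, adjusted p = 0.049) and with a pseudocount of 16 (-0.98). KC1 was called above KC2 (1.36, adjusted p = 0.00941) and KC3 (1.01, adjusted p = 0.0293). The Birc3 call of KC1 over KC3 was lost without KC1 replicate 1 (adjusted p = 0.0583) or 2 (0.78, adjusted p = 0.0972) and without KC3 replicate 1, 2 or 3 (adjusted p of 0.0654 to 0.0776). It was also lost with quantile normalization (0.81), median centring (0.80) and a pseudocount of 16 (0.93). The second Birc3 probe set was at or under the floor on 3 arrays and passed in no comparison.

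Icam1, a surface adhesion molecule and a standard read-out of NF-kappaB activity in endothelium, had the narrowest span of line means among the members read on their brightest probe sets, at 0.22 on the log2 scale. It read 574, 663 and 652 in KC1 and 679, 607 and 674 in KC2. In KC3 it read 650.0, 696 and 641, against 546, 569 (replicate 2) and 589 in KC4. Only KC2 and KC3 lay wholly above KC4. The class difference was 0.19 with a 95% interval of 0.06 to 0.31 (adjusted p = 0.0365), which keeps it well under a 2-fold change.

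**Figure D2:**
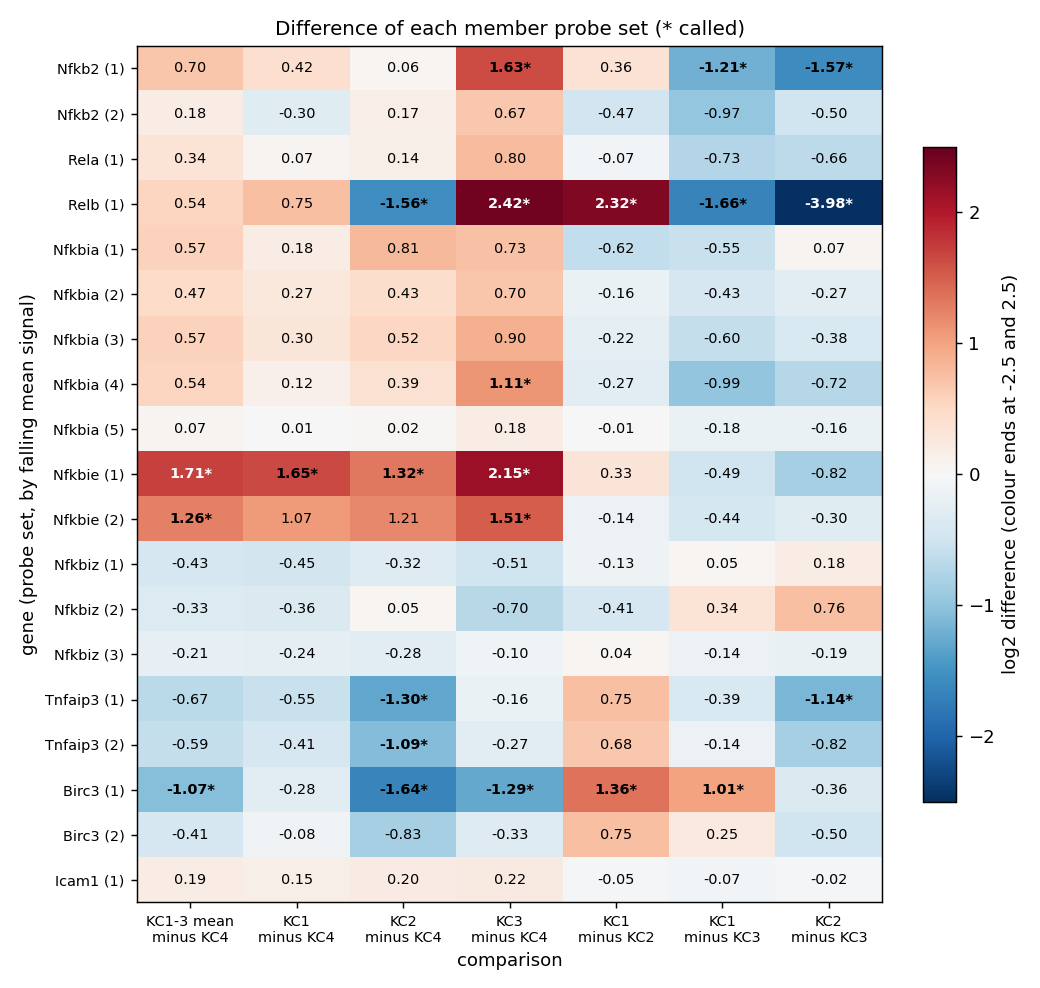
Log2 difference (colour and number) of each of the 19 probe sets (rows, numbered within a gene by falling mean signal) in 7 comparisons (columns), the first setting the average of the highly metastatic lines against KC4. A star marks a call, that is, adjusted p under 0.05 and a log2 difference of at least 1 in size. Stars gather in the KC3 minus KC4 column, with 6, and in the KC2 minus KC4 column, with 5.

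Counted over the 19 probe sets, the class comparison called 3, or 15.8%, where 4.59% of all probe sets were called. Of these 2 were higher (both Nfkbie probe sets, beside 2.49% of all) and 1 was lower (Birc3, beside 2.1% of all). KC1 minus KC4 called 1, or 5.26%, close to the 4.75% of all probe sets. It was Nfkbie, which was higher, beside 3.09% of all in that direction. KC2 minus KC4 called 5, or 26.3% beside 7.99% of all. Of these 1 was higher (Nfkbie, beside 4.26% of all) and 4 were lower (Relb, Birc3 and both Tnfaip3 probe sets, beside 3.73% of all). KC3 minus KC4 called 6, or 31.6% beside 6.7% of all. Of these 5 were higher (Nfkb2, Relb, Nfkbia and both Nfkbie probe sets, beside 2.74% of all) and 1 was lower (Birc3, beside 3.96% of all). KC3 therefore held more called member probe sets than KC1 did, and mostly in the upward direction, while KC2 held mostly downward calls. Nfkbie counts double in the class and KC3, and Tnfaip3 in KC2. On the highest-mean probe set of each of the 9 genes, the class called 2, beside 5.36% of all genes, and KC1 minus KC4 called 1, beside 5.36%. KC2 minus KC4 called 4 (1 higher, 3 lower), beside 9.31%, and KC3 minus KC4 called 4 (3 higher, 1 lower), beside 7.92%. These 3 comparisons share the KC4 arrays, so their counts are not independent of each other, and a test between the counts was not made.

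Between the highly metastatic lines, KC1 minus KC2 called 2, both higher in KC1 (Relb and Birc3), or 10.5%, beside 4.04% of all probe sets and 2.49% of all in that direction. KC1 minus KC3 called 3, or 15.8% beside 7% of all, with Birc3 higher (4.78% of all) and Nfkb2 and Relb lower (2.21% of all) in KC1. KC2 minus KC3 called 3, all lower in KC2 (Nfkb2, Relb and Tnfaip3), or 15.8%, beside 9.42% of all and 3.97% of all in that direction. By the adjusted p alone the class comparison passed 14 of 19 probe sets, beside 23.4% of all, and KC3 minus KC4 passed 13, beside 24.4% of all. KC1 minus KC4 passed 5, beside 18.3%, and KC2 minus KC4 passed 10, beside 26.7%. KC1 minus KC2 passed 7, beside 18.2%, KC1 minus KC3 passed 10, beside 25%, and KC2 minus KC3 passed 9, beside 29.3%. The median difference over the 19 probe sets was 0.67 for KC3 minus KC4, 0.06 for KC2 minus KC4, 0.07 for KC1 minus KC4 and 0.19 for the class, where the median of all probe sets was -0.04 for KC3 minus KC4 and 0 for the other 3.

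The scale chosen bears on values that involve KC3. Centring each array on its median moved the median difference of all probe sets to 0.14 for KC3 minus KC4, -0.19 for KC1 minus KC3 and -0.17 for KC2 minus KC3, and no called member difference changed sign under it or under quantile normalization. The split of all calls did turn. For KC3 minus KC4 it was 1234 higher and 1785 lower as deposited, 1885 higher and 1326 lower after median centring, and 1420 higher and 1470 lower after quantile normalization.

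**Figure D3:**
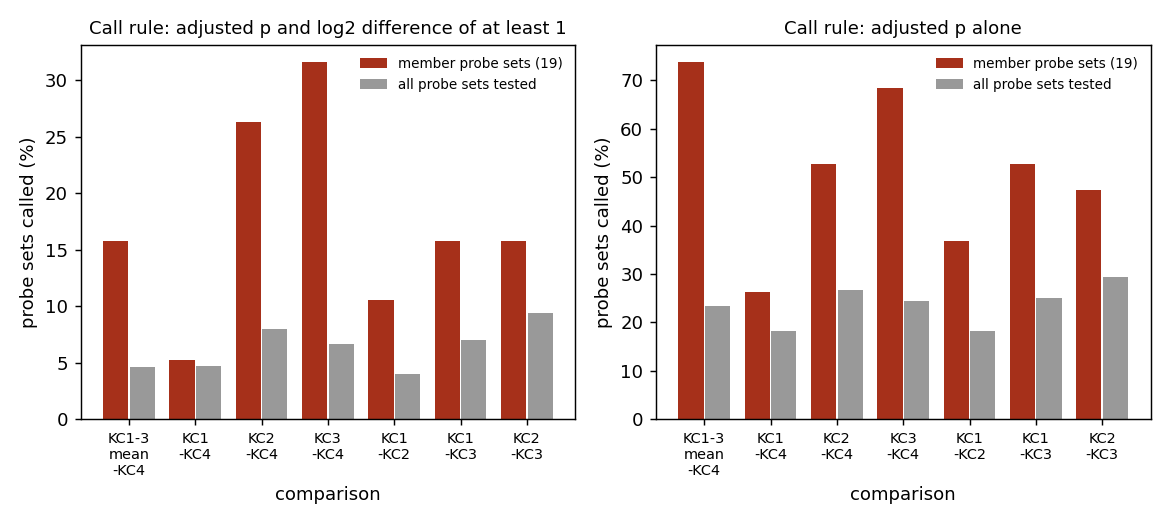
Percent of probe sets called (y axis, from 0) in each of 7 comparisons (x axis), for the 19 member probe sets (red) and all 45037 tested (grey), by the full call rule at left and by the adjusted p alone at right. Under the full rule the members reach 31.6% in KC3 minus KC4 beside 6.7% of all, and 5.26% in KC1 minus KC4 beside 4.75% of all.

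The wider pathway list holds receptors, adaptors and kinases that lead to NF-kappaB, together with further subunit and IkappaB genes such as Rel and Bcl3. Of its 51 genes 47 were measured, each read on its probe set with the highest mean, and Chuk, Ripk1, Traf3 and Irak4 were not analysed here. In the class comparison 1 was called higher and 2 lower, together 6.38%, where 5.36% of all 18193 genes were called. KC1 minus KC4 called 1, which was lower, beside 5.36% of genes. KC2 minus KC4 called 3, each higher, beside 9.31% of genes, and KC3 minus KC4 called 3 higher and 1 lower, beside 7.92% of genes. These shares against KC4 lie near those of all genes or below them. Between the highly metastatic lines the list had 6.38% called in KC1 minus KC2, 6.38% in KC1 minus KC3 and 14.9% in KC2 minus KC3. All genes had 4.78%, 8.01% and 10.7% in the same order. By the adjusted p alone, 11 rose and 9 fell in the class comparison, together 42.6% beside 30.3% of all genes, so most of the differences that passed were under 2-fold.

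Card10, which encodes a scaffold protein linking protein kinase C to NF-kappaB, was the gene called higher, with log2 signals of 10.27 ± 0.15, 11.13 ± 0.05 and 10.60 ± 0.04 in KC1, KC2 and KC3 and 9.42 ± 0.08 in KC4 (SD, n = 3 each), a class difference of 1.25 (adjusted p = 1.1e-06). Bcl3, an atypical IkappaB protein that works with p50 and p52 in the nucleus, was lower by class (-1.14, adjusted p = 0.000127). The Bcl3 difference lay in KC3, where the log2 signal was 6.31 ± 0.10, against 8.94 ± 0.06 in KC4, while KC1 had 8.74 ± 0.34 and KC2 8.35 ± 0.08. KC3 was called below each other line for Bcl3, by at least 2.04, and without KC3 the class difference was -0.40 and not called. Rel, the gene of the subunit c-Rel that is best known from lymphocytes, was near the floor in KC1, with 2 of 3 arrays under it and a log2 mean of 4.52 ± 0.90. For Rel, KC2 had 6.28 ± 0.34, KC3 had 6.73 ± 0.10 and KC4 had 6.97 ± 0.50. KC1 was called below each other line for Rel, and KC1 minus KC2, at -1.76, was the smallest of these differences (adjusted p = 0.0207). The Rel class difference of -1.13 had an adjusted p of 0.0473, and leaving out any array other than KC1 replicate 1 ended the call, with values of -0.84 to -1.29. The KC1 minus KC2 call for Rel was lost without KC1 replicate 2 or 3 or KC2 replicate 1 or 3, at -1.49 to -1.68. With a floor of 64 all 3 Rel calls of KC1 were lost, at -0.31 against KC2, -0.73 against KC3 and -0.97 against KC4. Tlr3, a receptor for double-stranded RNA, was higher in KC2 than in each other line, at 9.71 ± 0.03 in KC2, beside 8.68 ± 0.04 in KC1, 7.42 ± 0.15 in KC3 and 8.01 ± 0.21 in KC4, its call over KC1 being lost by a small margin with median centring (KC1 minus KC2 -0.99). Of all genes, 0.143% were called lower in KC1, 0.808% higher in KC2 and 1.51% lower in KC3 than in each other line.

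Among genes known as NF-kappaB targets, Csf2, Mmp13, Ccl20 and Il23a had the largest called upward differences between the highly metastatic lines and KC4. Of 45 listed genes 43 were measured, and C3 and Tnip3 were not analysed here. In the class comparison 7 were called higher and 2 lower, together 20.9% beside 5.36% of all genes. By the adjusted p alone 18 rose and 5 fell, together 53.5% beside 30.3% of all genes. KC1 minus KC4 called 11 higher and 2 lower, KC2 minus KC4 called 9 higher and 4 lower, and KC3 minus KC4 called 11 higher and 2 lower. That is 30.2% in each, beside 5.36%, 9.31% and 7.92% of all genes. The median target difference was small all the same, at 0.22 for KC1, 0.04 for KC2 and 0.07 for KC3, each against KC4. Without KC2 replicate 3 the KC2 count was 8 in all.

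The plot of target differences shows which targets were called in each line. Csf2, the gene of the myeloid growth factor GM-CSF, was higher in all 3, with log2 signals of 9.98 ± 0.11, 10.20 ± 0.09 and 10.14 ± 0.11 in KC1, KC2 and KC3 and 6.06 ± 1.55 in KC4 (SD, n = 3 each), a class difference of 4.05 (SE 0.50, adjusted p = 0.000358). Mmp13, a collagenase, stood in the order KC1, KC2, KC3, KC4, at 11.74 ± 0.05, 9.48 ± 0.01, 7.32 ± 0.22 and 5.82 ± 0.25. Each step in that order for Mmp13 was called, and KC1 exceeded each other line by at least 2.26.

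KC3 stood highest for several targets. Il23a, which encodes the p19 subunit of interleukin-23, reached 10.71 ± 0.02 in KC3 and 9.23 ± 0.20 in KC1, but 6.43 ± 0.11 in KC2, against 6.49 ± 0.25 in KC4. Ccl20, a chemokine for cells with the receptor CCR6, reached 10.15 ± 0.08 in KC3, beside 6.47 ± 1.18 in KC1, 4.59 ± 0.42 in KC2 and 4.52 ± 0.32 in KC4. Lcn2, an iron-scavenging secreted protein, was dim everywhere and highest in KC3, at 6.59 ± 0.23, beside 4.78 ± 0.32 in KC1, 4.17 ± 0.30 in KC2 and 4.49 ± 0.45 in KC4. With Cxcl1, a neutrophil chemokine picked out after its values were seen (12.86 ± 0.02 in KC3 against 10.68 ± 0.18 in KC4), these make 4 of 43 targets called higher in KC3 than in each other line, where 0.824% of all genes were. For Lcn2 the other lines lay near the floor, and with a floor of 64 its difference was 0.59 in size against each other line and not called. The Ccl20 call of KC1 over KC4 (1.95, adjusted p = 0.0279) was lost without KC1 replicate 1 or 3 or KC4 replicate 1 or 2, at 1.55 to 1.91, and with a floor of 64 (0.76), and the Ccl20 class difference of 2.55 shrank to 1.01 and was not called without KC3.

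Il1a, which encodes the cytokine interleukin-1 alpha, had the order of line means seen for Relb, KC3 before KC1, KC4 and KC2. Its log2 signal was 9.09 ± 0.34 in KC1, 5.40 ± 1.21 in KC2 with 1 array under the floor, and 10.52 ± 0.14 in KC3, against 8.80 ± 0.09 in KC4. KC2 was called lower than each other line for Il1a, by at least 3.40, and no other target was called lower in KC2 in this way, where 1.01% of all genes were. KC3 minus KC4 for Il1a was 1.72 (adjusted p = 0.0347). That call was lost without any 1 array of KC3 or KC4 and without KC1 replicate 2 or 3, though the difference stayed at 1.64 to 1.76. The spread used for Il1a takes in KC2, with its SD of 1.21. KC1 minus KC3 was not called for Il1a, but it was called at -1.42 without KC2 replicate 2 (adjusted p = 0.000422) and with a floor of 64 (adjusted p = 0.0002). Cxcl5, another neutrophil chemokine, was highest in KC1, at 9.52 ± 0.42, beside 7.21 ± 0.13 in KC2, 4.88 ± 0.53 in KC3 and 5.29 ± 0.16 in KC4, and with Mmp13 it was called higher in KC1 than in each other line, as 0.704% of all genes were. The 2 targets called lower by class were Cxcl10 and Sele. Cxcl10, an interferon-responsive chemokine, was at or under the floor on all KC2 and KC3 arrays and on 2 of 3 KC1 arrays, against a signal of 108 ± 10.0 in KC4, so the size of its difference is set by the floor and no fold is given. Cxcl10 passed the adjusted p in each line against KC4 with a floor of 64 as well, but was then under the size for a call. The Cxcl10 call of KC1 against KC4 (adjusted p = 0.0168) was lost without KC1 replicate 1 or 2 or KC4 replicate 2 or 3. Sele, the adhesion molecule E-selectin of endothelium, read 6.27 ± 0.32, 6.02 ± 0.31 and 5.16 ± 0.97 in KC1, KC2 and KC3 and 7.46 ± 0.06 in KC4, beside the endothelial marker sums given above, 393 to 500.04 in KC4. The Sele call of KC2 against KC4 (-1.43, adjusted p = 0.0327) was lost without KC2 replicate 2 or 3 or any 1 KC4 array, at -1.27 to -1.45.

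**Figure D4:**
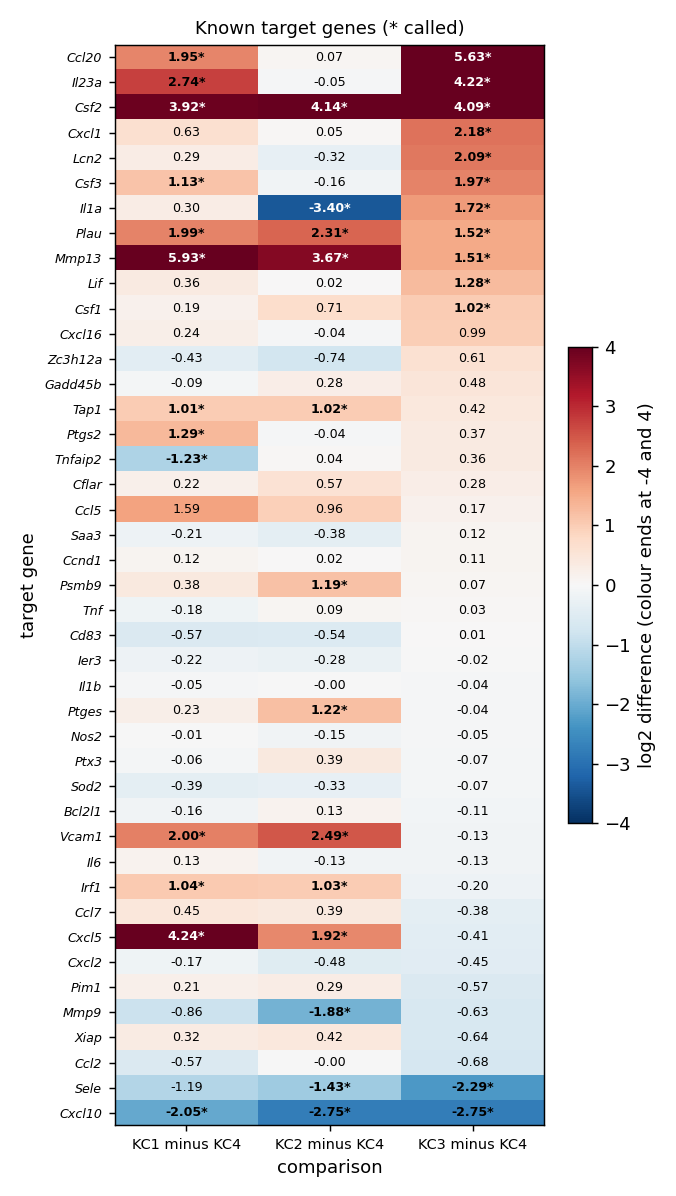
Log2 difference from KC4 (colour and number) of 43 known NF-kappaB target genes (rows, ordered by KC3 minus KC4) in KC1, KC2 and KC3 (columns). A star marks a call. Csf2, Mmp13 and Plau carry positive stars and Cxcl10 negative stars in all 3 columns, whereas Il23a is starred in KC1 and KC3 and Vcam1 in KC1 and KC2.

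For the 3 genes with the widest range of line means, the genes with the most similar profile over the 12 arrays were found among 8634 probe sets that varied at least 2-fold between lines, by the root mean square difference of log2 values after each was centred on its mean. Closest to Relb were Slc30a1, a zinc exporter, at 0.41, Sh3kbp1, an adaptor in receptor uptake, at 0.52, and Itgb2, the beta-2 integrin chain, at 0.56. Closest to Nfkbie were Gm19619 at 0.30, 4930486L24Rik at 0.34 and Spred3, an inhibitor of Ras signalling, at 0.34. Closest to Birc3 were Asph, an aspartyl hydroxylase, at 0.29, Ccn2, a matricellular protein, at 0.29, and Dipk2a at 0.30.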

How the data were processed

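Total RNA of 4 cell lines was hybridised to 1-colour Affymetrix arrays, 3 per line. The deposited values are a linear intensity per probe set in a matrix of processed values. The software and normalization are not given in the sources used here, and the trimmed mean near 500.002 on every array shows that the deposited intensity values are scaled to 1 target. Of 45101 probe sets, 64 controls were left out of the tests. Values were floored at 16 and taken to log2, since the deposited table is on no log scale. The platform annotation gave 1 symbol to 34945 probe sets, several to 932 and none to 9160.

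limma 3.58.1 in R 4.3.3 was fitted with 1 coefficient per line (lmFit, contrasts, eBayes; prior degrees of freedom 0.70) over 45037 probe sets, and p-values were adjusted over all of them by the Benjamini-Hochberg method. A call needed an adjusted p under 0.05 and a log2 difference of at least 1. Folds are on the floored scale and understate changes of dim genes. The procedure was tested on simulated data. The simulation gave KC1, KC2 and KC3 a common mean for each probe set, so it says nothing of class calls where these lines differ. SDs are over 3 arrays.

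The genes and both pathway lists were chosen with earlier results of these data known, so no count here is independent support. All members are named. A list gene is named if it ranks in the first 4 by class difference in its direction, or in the first 2 set apart in the same direction from each other line by a highly metastatic line. Genes outside the rule are marked where a count needed them. Alternatives were other normalizations, floors, filters, priors and fits, and each array or highly metastatic line left out. For the pathway lists these were added after the data were seen. Promoter sequences are RefSeq's on GRCm38.p6. Same-numbered arrays of different lines did not deviate together (18 correlations, -0.12 to 0.09), so no pairing was used.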

Additional observations from a re-analysis of the deposited data

How the results depend on the processing

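Over 2778 alternative values of single members, 2677 kept their call status, 43 lost a call, 58 gained one (45 of them by dropping the size requirement) and none called under either setting turned its direction. At most 31.6% of the 19 probe sets were called in any comparison above, so most values that kept their status were uncalled ones. The number kept therefore says little about how firm the calls were. The sign changed in 43 values, none of them called under either setting. Leaving out 1 array gave 1 to 3 members called for the class, 1 to 1 for KC1 minus KC4, 4 to 6 for KC2 minus KC4, 5 to 6 for KC3 minus KC4, 2 to 2 for KC1 minus KC2, 2 to 3 for KC1 minus KC3 and 3 to 4 for KC2 minus KC3. KC4 replicate 2 gave the class count of 1. The class count of 3 also became 1 with the brighter 50% of probe sets, a floor of 64, a pseudocount of 16, or without KC3, and 0 with the line as a random block (correlation 0.43), where limma called 508 of all probe sets in place of 2067 and 5 of the 19 member probe sets had an unadjusted p under 0.05. That fit has 1 KC4 line, and its Nfkbie value had an adjusted p of 0.078 and its Birc3 value 0.496. KC1 minus KC4 had 0 members called in the brighter 50%, where both Nfkbie probe sets were filtered out and 9 of 16 had an unadjusted p under 0.05, and 0 with a floor of 64 (10 of 19 by the unadjusted p), where KC2 minus KC4 had 3. With median centring KC2 minus KC3 had 5. By the adjusted p alone the counts were 14 for the class, then 5, 10 and 13 for KC1, KC2 and KC3 minus KC4, and 7, 10 and 9 for KC1 minus KC2, KC1 minus KC3 and KC2 minus KC3. The cause of these changes was not tested beyond the filters' own construction. The replicate block, over numbers that do not pair the arrays, gave 2, 1, 5, 5, 2, 3 and 3 members in the same order of comparisons, the second Nfkbie probe set losing its class call (adjusted p = 0.0547) and KC3 minus KC4 call (adjusted p = 0.0581). Of 1921 alternative values of the 13 named list genes, 71 lost a call, 24 gained one, and 1 turned: the class difference of Il1a, -0.46 and not called, was 1.01 and called without KC2. With the line as a random block the target list had 2 class calls. Dim signals limit Relb and Il1a in KC2, Nfkbie in KC4, the second Birc3 probe set, Rel, Lcn2 and Cxcl10.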
